A study of Mus musculus with 12 samples.

Results

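T cell receptor (TCR) beta chains with V segment TRBV19 or TRBV29 were followed in CD4+ T cells of a T cell transfer colitis model. The older nomenclature calls these segments Vbeta6 and Vbeta7. A clonotype, that is 1 CDR3 nucleotide sequence of 1 library, was counted as a member when TRBV19 or TRBV29 was its best-scoring V gene, and 8584 of 113664 clonotype entries met this rule. TRBV19 accounted for 6711 entries and 93707 unique molecular identifiers (UMIs), and TRBV29 for 1873 entries and 22511 UMIs. Both together made up 6.77% of the 1716882 UMIs of the 12 libraries. The assignment was rarely ambiguous, since only 0.0699% of the member entries had another V gene with an equal score. No gene outside the TCR beta locus is in these tables, so neither the CD4+ label nor the loss of the kinase could be checked from them.

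All 6 recipients were Rag2-/- mice, a strain without T and B cells, and each had been injected intraperitoneally with naive CD4+ CD25- CD44- CD62L+ T cells, labelled as C57BL/6. Donors were Prkaa1fl/fl mice (WT; replicates 1, 3 and 4) or Prkaa1fl/fl mice with CD4-Cre (KO; replicates 1, 2 and 3), so the floxed Prkaa1 allele was common to both genotypes. Prkaa1 encodes the AMPKα1 subunit, and CD4-Cre deletes it from the stage of CD4+ CD8+ thymocytes onwards, that is, also in the cells before transfer. CD4+ T cells were taken from spleen and mesenteric lymph node (mLN) 6 weeks later, which gave 4 groups of 3 libraries. Spleen and mLN libraries that share genotype and number were taken to come from 1 animal, whereas WT and KO mice of the same number are different animals. Mice were used at 6 to 8 weeks of age. In this model the paper reports weight loss and severe disease in recipients of WT cells. Recipients of KO cells kept their weight, with mild inflammation, so genotype and disease state cannot be told apart here.

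A TCR beta chain is assembled in the thymus by joining 1 V, 1 D and 1 J segment, with bases trimmed from the segment ends and others added between them. The V segment encodes the first 2 antigen-contacting loops and the first residues of the third, CDR3, whose middle is unique to the junction. Both segments are also known from studies of superantigens, which bind TCRs through the V part of the beta chain and can delete or expand all T cells that carry a given segment, and C57BL/6 mice keep T cells with either of them.

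The germline ends of both segments are shown because they set the first residues of every member CDR3. Trbv19 lies on the forward strand of chromosome 6 (GRCm38), where the GENCODE M21 annotation gives the gene at chr6:41178375-41179048 with a leader exon and a V exon. Trbv29 lies 92345 bases downstream, at chr6:41271394-41271881 on the same strand, with 9 annotated V genes between them. GENCODE lists both as TCR V genes, whereas RefSeq lists Trbv19 as a V segment and Trbv29 as a V segment pseudogene. In the following lines, capitals mark the V bases that belong to the CDR3, from the conserved cysteine codon to the end of the V exon (chr6:41179033-41179048 for Trbv19 and chr6:41271865-41271881 for Trbv29). The last 30 bases of the V exon before them and the 39 bases after them, which hold the recombination signal, are in lower case.
Trbv19, chr6:41179003-41179087: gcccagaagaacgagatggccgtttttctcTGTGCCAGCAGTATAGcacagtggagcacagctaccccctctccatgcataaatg
Trbv29, chr6:41271835-41271920: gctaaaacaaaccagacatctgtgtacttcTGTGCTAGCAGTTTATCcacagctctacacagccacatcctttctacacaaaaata
TRBV19 thus brings 16 germline bases to the CDR3 and TRBV29 brings 17. The 7 bases after the V exon, the heptamer of the recombination signal, matched the consensus CACAGTG at 7 of 7 positions in Trbv19 and at 5 of 7 in Trbv29.

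Library totals ranged from 2488 UMIs (KO replicate 3 mLN) to 493287 UMIs (WT replicate 3 spleen), so values of rare clonotypes are least precise in the smallest library. The libraries also fell into 2 kinds, by the share of 1-UMI clonotypes whose CDR3 end is unusual for their J segment. In the first kind, 5 libraries made of WT replicate 1 (spleen and mLN), KO replicate 1 (spleen and mLN) and KO replicate 3 (mLN), it was 2.42% to 5.85%. In the second kind, the other 7, it was 26.1% to 38.3%. Library total separated the kinds as well, at 2488 to 64882 UMIs and 68536 to 493287 UMIs. Genotype differences are for this reason printed for each kind separately too.

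TRBV19 was a V segment of middle rank with a steady level. It took 4.86 ± 1.33% of UMIs (mean ± SD, n = 12 libraries) and was the 9th of 25 V segments by mean. In WT spleens it took 3.91%, 7.02% and 4.93% of UMIs (replicates 1, 3 and 4), and in KO spleens 4.63%, 6.93% and 2.87% (replicates 1, 2 and 3). In WT mLN it took 4.14%, 6.29% and 4.31%, and in KO mLN 4.77%, 5.21% and 3.30%. The highest values came from 1 mouse of each genotype, and the WT and KO groups overlapped in both organs.

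TRBV29 was less used and more variable. It took 1.65 ± 1.05% of UMIs over the 12 libraries and was the 16th of 25 segments. In WT spleens it took 1.37%, 0.790% and 1.33%, and in KO spleens 1.68%, 2.05% and 0.847%. In WT mLN it took 3.81%, 0.763% and 1.52%, and in KO mLN 2.94%, 2.57% and 0.0804%. The last value, from KO replicate 3, rests on 2 of 2488 UMIs (Wilson 95% confidence interval 0.0220% to 0.293%), both from non-productive clonotypes, while the spleen of the same mouse held 1872 TRBV29 UMIs. The groups again overlapped in both organs. For all UMI shares, fewer cells of a clonotype and less TCR RNA per cell cannot be told apart.

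**Figure D1:**
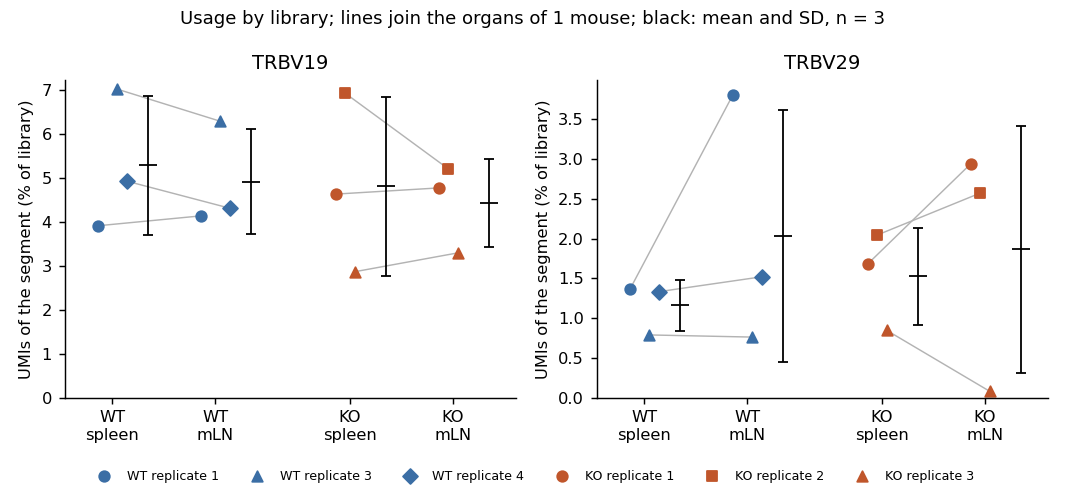
UMIs of TRBV19 (left) and TRBV29 (right) as percent of the UMIs of each library, by genotype and organ; symbols are mice, grey lines join the organs of 1 mouse, and black bars give the mean and SD of 3 libraries. TRBV19 lies between 2.87% and 7.02% and TRBV29 between 0.0804% and 3.81%, with overlapping WT and KO values in each organ.

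To ask whether loss of AMPKα1 altered the use of these segments, UMIs per V segment were compared by edgeR's quasi-likelihood test with Benjamini-Hochberg adjustment over all V segments. In spleen, the log2 fold change (KO over WT) was -0.14 (SE 0.55, adjusted p = 0.839) for TRBV19 and 0.39 (SE 0.70, adjusted p = 0.764) for TRBV29. In mLN it was -0.15 (SE 0.53, adjusted p = 0.830) and -0.10 (SE 0.96, adjusted p = 0.921). Neither member passed the threshold of 0.05 in either organ, and the standard errors leave room for changes of this size in either direction. Of all V segments, 2 of 25 (8.00%) passed it in spleen, TRBV23 with a log2 fold change of -2.58 (SE 0.76, adjusted p = 0.0234) and TRBV15 with 1.63 (SE 0.55, adjusted p = 0.0478). DESeq2 called 1, TRBV23, and edgeR called 0 without WT replicate 3, WT replicate 4 or KO replicate 2, and 0 without the largest clonotype of each segment. In mLN 0 of 23 passed (0.00%), with 1 at an unadjusted p under 0.05 in edgeR and 0 past the adjusted threshold in DESeq2.

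In percentage points, the KO minus WT difference for TRBV19 was -0.479 in spleen and -0.489 in mLN. Within the first and the second kind of library it was 0.720 and -1.08 in spleen, so that the direction did not hold, and -0.103 and -0.0950 in mLN. For TRBV29 it was 0.362 in spleen (0.317 and 0.385 within the kinds) and -0.166 in mLN (-2.30 and 1.43 within the kinds). Each kind holds only 1 to 2 libraries per genotype in an organ, and these differences are given without a test. In spleen the TRBV29 log2 fold change was 0.12 without KO replicate 2, 0.18 without WT replicate 3 and 0.68 without KO replicate 3. The sign of the TRBV29 difference in mLN was set by single libraries, since the edgeR log2 fold change was 0.45 without KO replicate 3 and 0.73 without WT replicate 1.

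The organs of the same mouse were compared next, with the mouse as a block. The log2 fold change (mLN over spleen) was -0.08 (SE 0.16, edgeR adjusted p = 0.920) for TRBV19, which was higher in mLN in 3 of 6 mice. For TRBV29 it was 0.24 (SE 0.37, edgeR adjusted p = 0.889), with higher values in mLN in 4 of 6 mice. The mLN to spleen ratio of TRBV29 was 2.79 in WT replicate 1 and 1.75 in KO replicate 1, near 1 in WT replicate 3 (0.966) and 0.0949 in KO replicate 3, whose mLN value rests on 2 UMIs. Without KO replicate 3 the TRBV29 log2 fold change was 0.54 (adjusted p = 0.134), and without WT replicate 1 it was -0.02. Over all segments, 0 of 25 passed the threshold between organs (0.00%; 3 at an unadjusted p under 0.05), whereas DESeq2 called 1, TRBV12-1. The difference of the genotype effect between organs was 0.03 (SE 0.32, edgeR adjusted p = 0.995) for TRBV19 and -0.62 (SE 0.79, adjusted p = 0.903) for TRBV29. No segment of 25 passed that test (0.00%; 2 at an unadjusted p under 0.05, 0 past the adjusted threshold in DESeq2).

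Clonotypes were then counted once each, irrespective of their UMIs, over the 25630 entries of at least 2 UMIs, of which 1764 used TRBV19 and 460 used TRBV29. Counted this way, TRBV19 was nearly constant, from 5.79% to 7.33% of the clonotypes of a library. Its coefficient of variation (CV) over libraries was 7.53%, the smallest of 25 segments, against a median of 18.1%. TRBV5 (7.98%) and TRBV31 (8.51%) came close, so this steadiness was not particular to TRBV19. By UMIs the CV of TRBV19 was 27.3%, the 23rd of 25 in descending order, against a median of 63.9%, the value of TRBV29 itself. The share of UMIs was smaller than the share of clonotypes in 11 of 12 libraries, with a ratio from 0.439 in KO replicate 3 spleen to 1.02 in WT replicate 3 spleen. TRBV29 held 1.36% to 2.14% of the clonotypes in 11 libraries, and no clonotype of at least 2 UMIs in KO replicate 3 mLN. Its CV was 34.5% by clonotypes and 63.9% by UMIs. Without that library the clonotype CV was 13.6% for TRBV29 and 6.48% for TRBV19, still the smallest of the 25 segments, with TRBV13-1 next at 8.01%. In the 11 libraries the TRBV29 clonotype share thus ranged little, while the UMI share ranged from 0.403 to 2.36 times their clonotype share. Segments with more clonotypes have a smaller counting error, and the part of this in the order of the CVs was not tested.

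**Figure D2:**
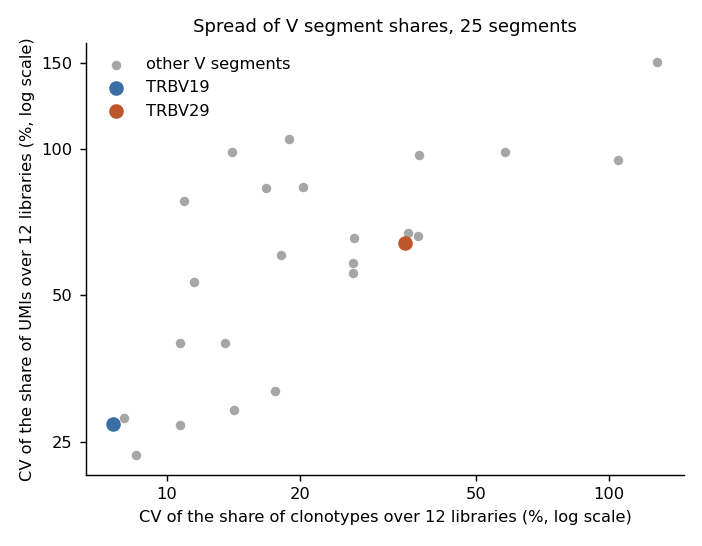
Coefficient of variation over the 12 libraries of the share of clonotypes of at least 2 UMIs (horizontal, log scale) and of the share of UMIs (vertical, log scale) for 25 V segments; each point is 1 segment. TRBV19 lies at 7.53% and 27.3%, at the left edge, and TRBV29 at 34.5% and 63.9%.

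Across the 12 libraries, the V segments whose usage was most like that of TRBV19, by Pearson's r of log2(percent of UMIs + 0.1), were TRBV24 (r = 0.697), TRBV1 (r = 0.649) and TRBV23 (r = 0.45). For TRBV29 they were TRBV3 (r = 0.703), TRBV1 (r = 0.692) and TRBV13-1 (r = 0.651). The libraries share mice, and shares within a library sum to 100%, so these values are descriptive. The TRBV29 order rested on the smallest library, since without it the leading segments were TRBV15 (r = 0.552), TRBV3 (r = 0.485) and TRBV21 (r = 0.207). TRBV24 and TRBV1 still led for TRBV19 (r = 0.621 and 0.581).

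A few expanded clonotypes carried much of the UMIs of each segment. The leading clonotype of a segment in a mouse was the one with the highest mean share of both organs, and CDR3 sequences are shown for those that took over 1% of a library, since they weigh most on its TRBV19 or TRBV29 level. Capitals mark the bases between the V and J parts.
TRBV19, WT replicate 3: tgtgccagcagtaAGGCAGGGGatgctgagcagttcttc
TRBV19, KO replicate 1: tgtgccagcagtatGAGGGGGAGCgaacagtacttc
TRBV19, KO replicate 2: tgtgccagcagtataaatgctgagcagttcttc
TRBV29, WT replicate 1: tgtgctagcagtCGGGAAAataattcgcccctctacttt
TRBV29, KO replicate 1: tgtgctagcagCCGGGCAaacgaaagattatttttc
TRBV29, KO replicate 2: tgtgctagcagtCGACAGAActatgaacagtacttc
The TRBV19 clone of WT replicate 3 used TRBJ2-1 and took 1.17% of the UMIs in spleen (Wilson 95% confidence interval 1.14% to 1.20%) and 0.948% in mLN (0.879% to 1.02%). That of KO replicate 1 used TRBJ2-7 and took 1.76% in spleen (1.66% to 1.86%) and 1.49% in mLN (1.34% to 1.65%). That of KO replicate 2, again with TRBJ2-1, had no base between its V and J parts and took 1.80% in spleen (1.73% to 1.86%) but 0.720% in mLN (0.675% to 0.768%), where another TRBV19 clonotype led with 1.38%. The clones of WT replicate 3 and KO replicate 2 passed 1% only in spleen, so their order between organs follows in part from the choice. Over all 6 mice, with no such limit, the leading TRBV19 clonotype had the higher share in spleen in 5.

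The leading TRBV29 clones shown passed 1% only in mLN, so a higher share there follows in part from the choice and is given as a description. The TRBV29 clone of WT replicate 1 used TRBJ1-6 and took 0.568% in spleen (0.445% to 0.724%) and 2.36% in mLN (2.10% to 2.65%), being number 7 of all clonotypes there. That of KO replicate 1 used TRBJ1-4 and took 0.863% (0.795% to 0.937%) and 1.82% (1.66% to 2%). That of KO replicate 2 used TRBJ2-7 and took 0.536% (0.501% to 0.574%) and 1.19% (1.13% to 1.25%). These 3 clones lacked 5 or 6 of the 17 germline V bases. In WT replicate 3 the leading TRBV29 clonotype took 0.104% of spleen and 0.128% of mLN UMIs, and in WT replicate 4 0.818% and 0.486%. The leading TRBV29 clonotype of KO replicate 3 took 0.156% of spleen UMIs and was not found among the 2488 mLN UMIs, where a count of 0 allows a share of up to 0.121%. Of the 5 mice with the clonotype in both organs, 1 had the higher share in spleen and 4 in mLN, and in WT replicate 3 the intervals overlapped (0.0952% to 0.113% and 0.104% to 0.158%). Intervals and limits cover counting error only, and they compare the 2 samples of 1 mouse, not conditions.

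Nearly all member sequences of at least 2 UMIs reached that level in 1 mouse only. All leading clonotypes except that of TRBV29 in WT replicate 3 were also seen in 1 to 3 other mice. No leading clonotype exceeded 0.00201% of a library of another mouse. Whether such traces passed between libraries was not tested, and the counts below were not corrected for this. Of 1297 TRBV19 sequences of at least 2 UMIs, 18 (1.39%) were found at that level in 2 mice, and of 342 TRBV29 sequences 6 (1.75%) were, against 498 of 16897 sequences of the other V segments (2.95%) in 2 or more mice. None of either reached 2 UMIs in 3 or more mice, whereas 41 of the others (0.243%) did. These differences were not tested. By CDR3 amino acid sequence, again from clonotypes of at least 2 UMIs, 29 of 1100 TRBV19 sequences (2.64%) occurred in 2 mice. Of 252 TRBV29 sequences 7 (2.78%) did, and 0 of either occurred in 3 or more. Of 13706 sequences of the other V segments, 647 (4.72%) occurred in 2 or more mice and 65 in 3 or more.

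Within each segment, the share of UMIs held by its most abundant clonotype measured how far 1 clone dominated. In mLN, the TRBV19 values were 12.5%, 15.1% and 5.92% for WT mice and 31.2%, 26.5% and 17.1% for KO mice. Every KO value lay above every WT value, with means of 24.9 ± 7.20% and 11.2 ± 4.72% (n = 3 each). The difference of 13.8 percentage points had a two-sided exact permutation p of 0.1, the smallest that 3 against 3 mice can give, and an adjusted p of 0.4 over 4 comparisons, so it did not pass the threshold. It was 11.6 within the first kind of library, 16 within the second kind and 17.7 without KO replicate 3, whose value rests on 14 of 82 UMIs. As percent of the library, the same clonotypes took 0.517%, 0.948% and 0.255% in WT mice and 1.49%, 1.38% and 0.563% in KO mice. These values overlapped (difference 0.570, exact permutation p = 0.2). Whether WT and KO values of other V segments lie apart in this way was not examined. In spleen, WT mice had 23.1%, 16.7% and 9.66% and KO mice 37.9%, 25.9% and 8.63% (difference 7.67, exact permutation p = 0.5). This spleen difference was 14.8 and 4.12 within the kinds and ranged from 0.80 without KO replicate 1 to 15.4 without KO replicate 3.

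TRBV29 was dominated by 1 clonotype more strongly, with 13.6% to 61.9% of its UMIs in the most abundant one. Spleens held 41.6%, 13.6% and 61.3% in WT mice, and 51.3%, 37.5% and 18.4% in KO mice. Means differed by -3.09, less than mice of 1 group did among themselves (exact permutation p = 0.9), and by 9.72 and -9.50 within the kinds. That spleen difference turned to 8.15 without WT replicate 4 and to 5.56 without KO replicate 3. In mLN, WT mice had 61.9%, 16.8% and 32% and KO mice 61.9%, 46.3% and 50%, where the last is 1 of 2 UMIs. The mLN difference of 15.8 (exact permutation p = 0.3) was -5.95 and 21.9 within the kinds, 17.2 without KO replicate 3, 28.3 without WT replicate 1 and 5.79 without WT replicate 3. The WT and KO values of TRBV29 overlapped in both organs.

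**Figure D3:**
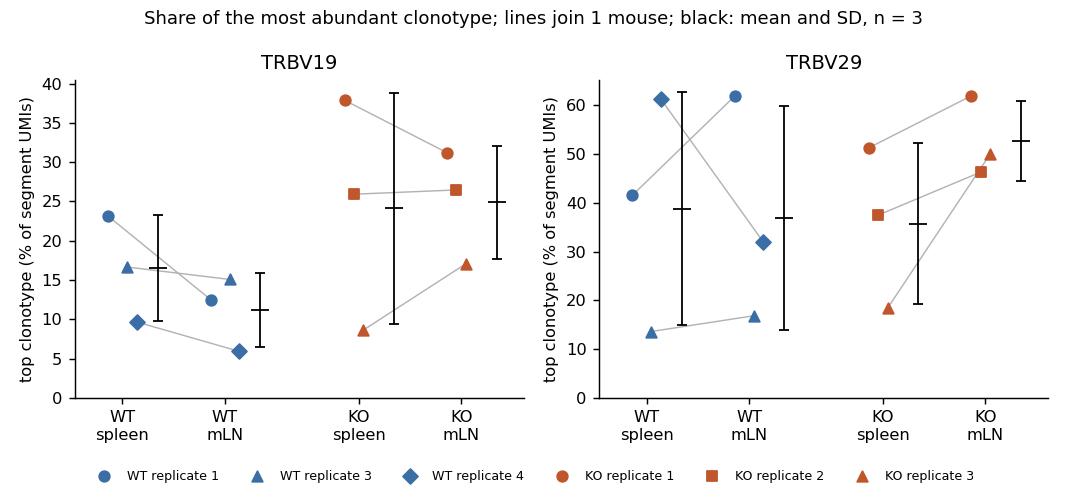
Share of the UMIs of TRBV19 (left) and TRBV29 (right) held by the most abundant clonotype of the segment in each library; symbols are mice, grey lines join the organs of 1 mouse, and black bars give the mean and SD of 3 libraries. For TRBV19 in mLN the KO values (17.1% to 31.2%) lie above the WT values (5.92% to 15.1%), while WT and KO values overlap in the other 3 comparisons.

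Most member UMIs of the mLN belonged to clonotypes also found in the spleen of the same mouse. For TRBV19 this share came to 83.3%, 93.3% and 87.7% among WT mice and to 93.8%, 93.7% and 93.9% among KO mice, with a mean of 91.0 ± 4.47% (n = 6 mice). It was below the share over all other V segments of the same mouse (93.8 ± 3.14%) in 6 of 6 mice, with differences from -8.45 to -0.151 percentage points. The exact sign-flip p was 0.03125, the smallest that 6 mice can give, but the adjusted p over 13 paired comparisons was 0.0580. In other settings the unadjusted exact sign-flip p was 0.188 for spleen UMIs found in mLN and 0.781 with each mLN clonotype counted once. It was 0.125 without 1-UMI clonotypes and 0.03125 by amino acid sequence. For TRBV29 the share of mLN UMIs was 94.1 ± 5.61% (difference 0.239, exact sign-flip p = 0.906, higher in 4 of 6 mice). The value of KO replicate 3, 100%, rests on 2 UMIs, and without this mouse the difference was -0.00384. In the other direction, 30.3% of the TRBV19 and 11.8% of the TRBV29 spleen UMIs of KO replicate 3 were in clonotypes also seen in its small mLN library, against 56.9% for the other V segments. In the other 5 mice these shares were 84.7% to 95.1%.

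The junctions were described over clonotypes of at least 2 UMIs, each counted once per mouse. Non-productive clonotypes, those out of frame or with a stop codon, made up 25.7 ± 5.52% in TRBV29 and 15.8 ± 3.09% in the other V segments (n = 6 mice), a difference that did not pass the adjusted threshold. WT mice had 30.8%, 23.3% and 22.8% of such TRBV29 clonotypes, and KO mice 17.4%, 27.9% and 31.9%. It was higher than that of the other V segments in 6 of 6 mice, by 4.78 to 18.1 percentage points (mean 9.85, exact sign-flip p = 0.03125, adjusted p = 0.0580). The numbers behind it were small, from 4 of 13 clonotypes in WT replicate 1 to 24 of 103 in WT replicate 3. For TRBV19 the share was 12.5 ± 3.06%, lower in 5 of 6 mice (difference -3.29, exact sign-flip p = 0.0625, adjusted p = 0.0903). Nearly all of these clonotypes were out of frame, with 25.1% out-of-frame and 0.597% stop-holding clonotypes for TRBV29 and 12.2% and 0.285% for TRBV19. The TRBV29 difference had an unadjusted exact sign-flip p of 0.219 with clonotypes weighted by UMIs (11.6 percentage points), 0.125 in mLN alone (7.38) and 0.0625 at 5 or more UMIs (8.37).

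At the V end, more germline bases were missing on average in both segments than in the others, in comparisons added after seeing the data whose adjusted p did not pass 0.05. Productive clonotypes lacked 3.01 ± 0.163 of the germline V bases for TRBV19 and 3.94 ± 0.295 for TRBV29, against 2.30 ± 0.0885 for the other V segments (n = 6 mice). Each member exceeded the other segments, and TRBV29 exceeded TRBV19, in 6 of 6 mice, with differences of 0.711, 1.64 and 0.928 bases (exact sign-flip p = 0.03125 each, the smallest possible, adjusted p = 0.0580). Leaving out any 1 mouse kept them at 0.677 to 0.760, 1.55 to 1.70 and 0.794 to 0.989 bases. An untrimmed V end was kept by 12.8% of the TRBV19 and 8.66% of the TRBV29 clonotypes, against 28.2% of the others. The most common states were 2 missing bases for TRBV19 (22.7 ± 4.11% of clonotypes) and 6 missing bases for TRBV29 (21.0 ± 5.56%), the latter within its SD of the share with 2 missing bases (19.5 ± 8.23%). A base added at the junction that equals the germline base is counted as V, so these numbers are those of the alignment. The gap between the V and J parts was 9.13 ± 0.246 bases for TRBV19, 8.41 ± 0.869 for TRBV29 and 8.83 ± 0.0664 for the others, with adjusted p-values of 0.0903 for TRBV19 and 0.440 for TRBV29 against the others (exact sign-flip tests).

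**Figure D4:**
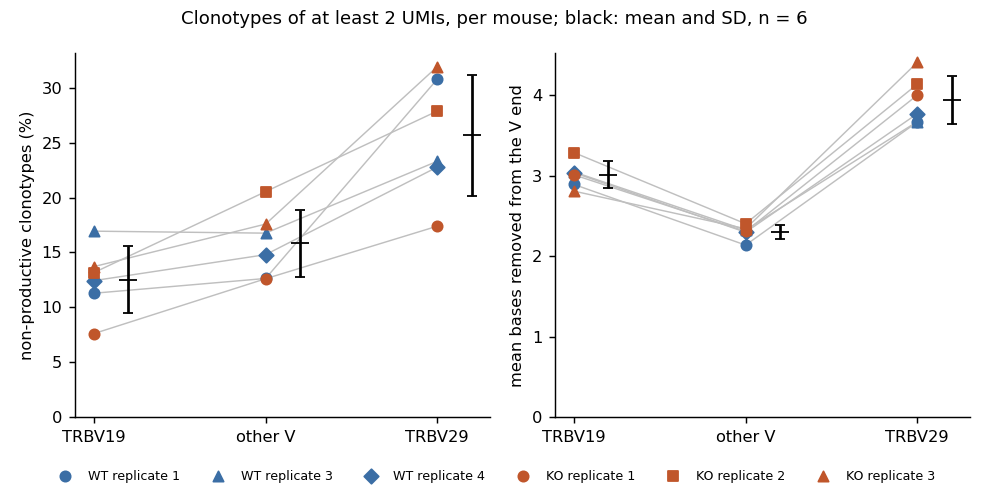
Percent of clonotypes that are out of frame or hold a stop codon (left) and mean number of germline bases missing from the V end of productive clonotypes (right), for TRBV19, all other V segments and TRBV29; symbols and grey lines are mice and black bars the mean and SD of 6 mice. TRBV29 lies above the other V segments in 6 of 6 mice in both plots.

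**Figure D5:**
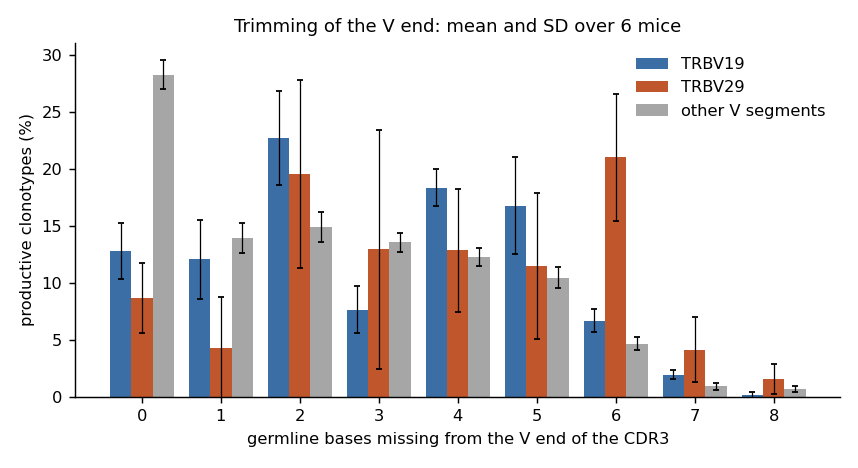
Share of productive clonotypes (vertical) by the number of germline bases missing from the V end (horizontal, 0 to 8), as mean and SD over 6 mice. The other V segments have their highest bar at 0 missing bases (28.2%), TRBV19 at 2 (22.7%) and TRBV29 at 6 (21.0%).

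These ends set the first CDR3 residues. Of productive TRBV19 clonotypes, 38.0 ± 5.75% started with CASSI, as the germline end does, which 0.302% of the other segments' clonotypes also did. A CASSI start did not require the germline isoleucine codon. The leading TRBV19 clonotypes of WT replicate 1 and WT replicate 4 read CASSI with 2 germline V bases missing. Of productive TRBV29 clonotypes, 38.2 ± 4.59% started with CASSL, which 14.3% of the others and 3.69% of the TRBV19 clonotypes also did. At the fifth residue, isoleucine (37.0%), arginine (12.9%) and proline (10.6%) were the most frequent of 1137 TRBV19 clonotypes, and leucine (41.4%), phenylalanine (11.1%) and serine (11.1%) of 261 TRBV29 clonotypes. The first 4 residues were CASS in 81.8 ± 3.81% of TRBV19 and 79.2 ± 5.52% of TRBV29 clonotypes, against 58.6 ± 1.17% of the others. The others pool segments whose germline starts were not compared, so their share does not show how often a CASS start was lost.

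Mean CDR3 length of productive clonotypes was 41.1 ± 0.267 nucleotides for TRBV19 and 40.6 ± 0.893 for TRBV29, against 41.4 ± 0.0617 for the other V segments. Both were shorter than the others in 6 of 6 mice, with mean differences of -0.286 and -0.803 nucleotides (exact sign-flip p = 0.03125 each, adjusted p = 0.0580). For TRBV29 this came mainly from KO replicate 1 (-2.47) and KO replicate 3 (-1.17), while the other 4 mice differed by -0.110 to -0.699. Without KO replicate 1 the TRBV29 difference was -0.470. It was -0.130 with 1-UMI clonotypes included (exact sign-flip p = 0.812) and -0.134 weighted by UMIs (exact sign-flip p = 0.938), so it rests on clonotypes of at least 2 UMIs counted once each. TRBV29 and TRBV19 did not differ beyond the spread between mice (difference -0.517, exact sign-flip p = 0.3125), and 42 nucleotides was the most frequent length of both (33.2% of TRBV19 and 31.4% of TRBV29 clonotypes).

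No J segment passed the test of a difference between either member and the other V segments. TRBV19 was most often joined to TRBJ2-7 (14.3 ± 3.10% of clonotypes, n = 6 mice), TRBJ2-5 (13.3 ± 2.99%) and TRBJ2-1 (11.6 ± 3.23%). TRBV29 was most often joined to TRBJ2-7 (17.6 ± 5.21%), TRBJ2-5 (14.3 ± 3.82%) and TRBJ1-3 (10.3 ± 7.47%). In the other V segments TRBJ2-7 (18.1 ± 0.360%) and TRBJ2-5 (13.1 ± 1.01%) also led. In edgeR's quasi-likelihood test with the mouse as a block, 0 of 12 J segments differed between TRBV19 and the other V segments (0.00%; 1 at an unadjusted p under 0.05, 0 past the adjusted threshold in DESeq2). That segment was TRBJ1-5, which made up 1.94% of TRBV19 and 3.03% of other clonotypes and was lower in 6 of 6 mice (log2 fold change -0.65, SE 0.27, adjusted p = 0.218). For TRBV29 likewise 0 of 12 passed (0.00%; 0 at an unadjusted p under 0.05 and 0 in DESeq2), and the smallest adjusted p was 0.577.

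The D segment differed more visibly in TRBV29, described here without a test. TRBD2 was the best-scoring D hit in 15.6 ± 9.25% of productive TRBV29 clonotypes, against 28.7 ± 2.57% for TRBV19 and 30.9 ± 0.630% for the other V segments. The TRBV29 share was below that of the others in 6 of 6 mice. TRBD1 was the best-scoring hit in 45.9 ± 9.94%, 37.5 ± 3.73% and 33.2 ± 1.71%, and the remaining clonotypes had no D hit or hits of equal score. The TRBV29 values rest on 9 to 79 clonotypes per mouse. TRBJ1 segments made up 35.2 ± 14.2% of productive TRBV29 clonotypes, 35.1 ± 7.30% of TRBV19 clonotypes and 33.9 ± 1.34% of the others.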

How the data were processed

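TCR beta libraries were made from total RNA of CD4+ T cells by 5′ RACE from the constant region with UMIs and sequenced on a MiSeq instrument. The authors grouped and corrected reads by UMI in MIGEC, then aligned and assembled them in MiXCR (versions and V and J reference not given in the sources used here), and downsampled only for their own analysis. The deposited counts are whole numbers, 1 for each clonotype, taken as UMIs, and each deposited fraction equals the count divided by the library total. Mergers of similar sequences and UMI errors could not be redone. Entries of a library with the same V gene and CDR3 were summed, and members were found by the best V hit. UMIs (segments with at least 10 in at least 3 libraries) and clonotypes per J segment were tested with edgeR 4.0.16 (quasi-likelihood test on library totals, Benjamini-Hochberg adjustment) in R 4.3.3; DESeq2 1.42.0 was an alternative. Single values per mouse went into two-sided exact permutation tests (20 assignments) or sign-flip tests (64 patterns, smallest p 0.03125) with Python 3.11.15, pandas 2.3.3, numpy 2.4.6 and scipy 1.17.1, adjusted over 4 and 13 results. Scripts were tested on simulated data. Organs were paired by mouse from genotype and number; their deviations from the group means correlated by 0.361 to 0.846 (6 pairs). Per the study's methods and legends the libraries come from 1 experiment with 3 mice per group, so p-values measure the spread between these mice within 1 experiment. Shares have Wilson 95% intervals and limits of 3 counts.

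Named were both members in every comparison, V and J segments past an adjusted p of 0.05, the 3 V segments most like each member, its 3 commonest J segments, and its most abundant clonotype per mouse (mean of both organs). Members and lists were chosen with earlier results of these data known. V end trimming and the V to J gap were added after seeing the data, as were the spread and the likeness of segments without KO replicate 3 mLN. TRBJ1-5, the D segments and the residues at the CDR3 start were named after their values were seen. Germline sequence and positions are from GRCm38, GENCODE M21 and RefSeq; the build of the V reference is not given in the sources used here, but the germline CDR3 starts seen in the data were found in GRCm38 exactly. Alternatives are in the closing section.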

Additional observations from a re-analysis of the deposited data

Results flagged for a closer look

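Among 48 sets of values checked, 8 had a mouse standing apart from the other 5. Chance alone gives about 1 in 20 in independent sets. Many of the 48 share mice and values, and some were checked by another rule that flags no single mouse. The count therefore cannot be compared with that rate. Of the 8, 4 came from the sharing of spleen UMIs with mLN in KO replicate 3, whose mLN library holds 2488 UMIs. There 30.3% of TRBV19 spleen UMIs (median over mice 91.4%) and 11.8% of TRBV29 spleen UMIs (median 90.8%) were found in mLN, which is -26.6 and -45.1 percentage points from the other V segments of that mouse (medians -1.88 and -2.53). KO replicate 3 also had the largest excess of missing V bases of TRBV29 over TRBV19, at 1.60 (median 0.813). In WT replicate 1, 49.1% of 55 productive TRBV19 clonotypes used a TRBJ1 segment (median 33.5%) and 49.1% started with CASSI (median 35.7%). In KO replicate 2, 2.27% of 44 productive TRBV29 clonotypes started with CASSI, against 0% in the other 5 mice. The causes were not tested.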

How the results depend on the processing

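The calls on TRBV19 and TRBV29 in the edgeR tests kept their side of the threshold in every alternative run. In spleen the 2 called V segments became 1 with DESeq2, with all V segments tested and without 1-UMI clonotypes. They became 0 with clonotypes in place of UMIs, without the largest clonotype of each segment and in the replicate block, which holds replicates 1 and 3 only. Between organs DESeq2 called 1. The sign of small log2 fold changes turned for TRBV19 in spleen (0.011, clonotypes), for TRBV29 in mLN (0.0070, TMM scaling) and between organs (-0.081, clonotypes), and for TRBV19 in the interaction (-0.074 with clonotypes, -0.060 in frame). For J usage, 1-UMI clonotypes added 1 call for TRBV19 (TRBJ1-2, lower) and 1 for TRBV29 (TRBJ1-1, lower). UMIs in place of clonotypes added 1 for TRBV19, again TRBJ1-2 (lower). TRBJ1-5 did not pass for TRBV19 in these settings (edgeR adjusted p = 0.184 and 0.290).

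WT and KO mice of the same number are different animals, and their deviations correlated by -0.0296 to 0.316 (4 pairs). Organs of 1 mouse correlated by 0.361 to 0.846. Replicate 1 of both genotypes gave only libraries of the first kind, and whether mice of the same number were handled together was not tested. With the number as a replicate block, only replicates 1 and 3 could be used, so WT replicate 4 and KO replicate 2 were left out. In this fit 0 segments were called in spleen and 2 in mLN (TRBV1 and TRBV13-2). The log2 fold changes for TRBV19 and TRBV29 were -0.53 and 0.20 in spleen and -0.36 and -1.50 in mLN. The TRBV29 leading share in spleen differed by 7.28. The effect of the block and that of the mice left out cannot be told apart here. With all mice, the TRBV29 leading share difference in spleen was 3.37 for the 3 most abundant clonotypes and 0.0978 as percent of the library.

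The length difference of TRBV19 was -0.613 with 1-UMI clonotypes, -0.320 at 5 or more UMIs and -0.603 weighted by UMIs. That of TRBV29 was -0.130, -0.855 and -0.134, with -0.953 in spleen and -0.310 in mLN alone, and TRBV29 minus TRBV19 turned to 0.483 with 1-UMI clonotypes, 0.469 weighted and 0.0337 in mLN. The non-productive difference at 5 or more UMIs was -4.41 for TRBV19 (exact sign-flip p = 0.03125) and 8.37 for TRBV29, which had 11.6 weighted and 7.38 in mLN. The gap difference turned with 1-UMI clonotypes to -0.00551 (TRBV19), 0.199 (TRBV29) and 0.204 (between them), and at 5 or more UMIs to 0.308 and 0.161. Organ sharing differed by -5.61 (TRBV19) and -9.88 (TRBV29) for spleen UMIs. For TRBV19 it was -0.883 by clonotypes, -2.24 without 1-UMI clonotypes and -2.89 with no replicate block (exact permutation p = 0.223), and for TRBV29 it was -0.0555 by amino acid sequence.

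With 1 mouse left out, 0 to 1 V segments were called in spleen and 0 in all other tests. Log2 fold changes ranged from -0.50 to 0.13 (TRBV19 spleen), 0.12 to 0.68 (TRBV29 spleen), -0.28 to 0.070 (TRBV19 mLN), -0.56 to 0.73 (TRBV29 mLN), -0.015 to 0.54 (TRBV29 organ), and -0.093 to 0.21 and -1.23 to 0.053 (interaction). Length differences were -0.325 to -0.220, -0.942 to -0.470 and -0.710 to -0.145. Non-productive differences were -3.99 to -2.48 and 8.19 to 10.9. Organ sharing was -3.44 to -1.78 and -0.932 to 1.48, and leading shares -15.7 to 8.15 (TRBV29 spleen) and 5.79 to 28.3 (TRBV29 mLN). With 5 mice the smallest sign-flip p is 0.0625, so no such p can pass. TRBV29 leading shares in mLN had no value for in-frame or amino acid definitions, because the 2 UMIs of KO replicate 3 are non-productive, and that library limits every TRBV29 value in mLN.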
